A study of Mus musculus with 16 samples.

Results

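The 10 immunoglobulin constant genes Ighm, Ighd, Ighg1, Ighg2b, Ighg2c, Ighg3, Igha, Igkc, Iglc1, and Iglc2 were examined in droplet single-cell RNA sequencing (scRNA-seq) of mouse kidney allografts and spleens. The genes were chosen by name, and each of the 10 was listed in all 9 deposited matrices of CD8+ T cells, which list 32285 genes in any matrix. They were read in 2 settings, namely the 47060 CD45+ cells of naive spleen, which include B and plasma cells, and the 72639 cells that the authors had called CD8+ T cells. Every barcode of the naive spleen CD8+ matrix also occurs in the CD45+ matrix of the same library, so the 2 settings share cells. In the CD8+ matrices the values are the immunoglobulin RNA found in cells called CD8+ T cells, some of which also held RNA of B cell genes. They are given as CPM, the counts of a gene scaled to a fixed total of unique molecular identifiers (UMIs) in each library. A UMI is the tag that marks a single captured mRNA molecule.

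Kidneys of the inbred strain DBA/2J were transplanted into C57BL/6J (B6) male mice with removal of both native kidneys and without immunosuppression, a combination in which the graft is accepted. Viable CD45+ cells were sorted from graft and spleen at 1, 3, and 24 weeks. B6 kidneys in DBA/2J recipients served as rejecting kidney allografts at 1 week, and spleens of mice without a transplant served as naive spleen. The labels give all samples as wild type and C57BL/6J, the rejecting ones included. Library tags in the barcodes told 32 CD8+ libraries apart. There were 3 libraries for accepted kidney and for recipient spleen at 1 week, 5 for each at 3 weeks, and 3 for each at 24 weeks. Rejecting kidney had 2 libraries, rejecting spleen 3, and naive spleen 5. The study's methods treat each mouse as a separate sample, whereas the labels do not tie a tag to a mouse, so the p-values measure the spread between these libraries.

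An antibody is built from heavy chains and light chains, and the constant gene of the heavy chain sets its class. B cells first use Ighm (IgM), and resting B cells make Ighd (IgD) from the same transcript by splicing. Upon class switching they take up a gene further along the locus, such as the Ighg genes (IgG) or Igha (IgA). Each B cell normally keeps either the kappa light chain (Igkc) or a lambda light chain (the Iglc genes), and in mice kappa is the more common. Plasma cells, which secrete antibody, devote much of their mRNA to these genes.

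In the GENCODE vM21 annotation of GRCm38, the heavy chain constant genes lie in 1 cluster on the minus strand of chromosome 12, from Ighm at chr12:113418558-113422730 to Igha at chr12:113254830-113260236. Between them lie Ighd at chr12:113406604-113416324, Ighg3 at chr12:113356224-113361232, Ighg1 at chr12:113325240-113330523, Ighg2b at chr12:113302965-113307933, Ighg2c at chr12:113285325-113288932, and Ighe, the IgE gene, at chr12:113269260-113273248. Igkc lies on the plus strand at chr6:70726435-70726966. Iglc1 (chr16:19061618-19062071), Iglc3 (chr16:19065230-19065681), and Iglc2 (chr16:19198396-19200351) lie on the minus strand of chromosome 16. The gene lists hold no Ighg2a.

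Of the lambda constant genes, Iglc2 and Iglc3 are close copies and Iglc1 is more distant, which bears on how their reads could be told apart by a 3′ assay. The last 120 coding bases of 3 of them are printed 5′ to 3′ on the coding strand, with capitals marking bases that differ from Iglc2.
Iglc2, chr16:19198539-19198658, minus strand: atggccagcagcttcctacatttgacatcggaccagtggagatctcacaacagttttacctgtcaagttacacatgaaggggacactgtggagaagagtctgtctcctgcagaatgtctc
Iglc3, chr16:19065368-19065487, minus strand: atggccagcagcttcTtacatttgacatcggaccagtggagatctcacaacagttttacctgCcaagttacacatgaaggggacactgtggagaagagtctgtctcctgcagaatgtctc
Iglc1, chr16:19061755-19061874, minus strand: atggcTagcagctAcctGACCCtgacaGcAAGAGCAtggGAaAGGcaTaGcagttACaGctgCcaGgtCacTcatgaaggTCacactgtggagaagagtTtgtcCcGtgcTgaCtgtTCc
Iglc3 differed from Iglc2 at 2 of these 120 bases, and Iglc1 differed at 38. Over the coding sequence, Iglc2 and Iglc3 shared 303 of 314 aligned bases (96.5%) and Iglc1 and Iglc2 shared 73.2%. Of the last 100 transcript bases, Iglc2 and Iglc3 had 89 in common, and Iglc1 and Iglc2 had 56. Among the IgG genes, Ighg2b and Ighg2c were the closest pair, with 85.9% of coding bases and 91 of the last 100 transcript bases in common. Counts of Iglc2 against Iglc3, and of Ighg2b against Ighg2c, may be affected by this likeness and are uncertain for that reason.

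The CD8+ libraries held 56 to 8407 cells and 153266 to 25960721 UMIs, and at most 1.79% of the smaller library's barcodes occurred in another CD8+ library. The smallest library, of rejecting spleen, had 56 cells. The libraries labelled 24-week kidney and 24-week spleen stood apart from their labels. A list of 10 kidney parenchyma genes summed to 0.16 to 0.36 CPM in the libraries labelled 24-week kidney and to 4.48 to 5.37 CPM in those labelled 24-week spleen. The same sum was 7.60 to 12.4 CPM in 3-week kidney and 0 to 0.48 CPM in 3-week spleen. These libraries are therefore named by their label throughout, and a direction drawn between them rests on that label. Whether these labels were exchanged was not tested. The comparisons that use no 24-week library are 5 of the 7.

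In the CD45+ matrix of naive spleen, 25430 cells (54.0%) were B-like, with Cd79a at 2260 ± 129 CPM and Ms4a1 at 1494 ± 92 CPM (mean ± SD, n = 5 libraries), and 98 cells were plasma-like by markers such as Jchain and Mzb1. Clusters were made without any immunoglobulin gene. Constant and variable immunoglobulin genes together took 1.57% ± 0.06 of the UMIs of B-like cells and 39.1% ± 4.3 of those of plasma-like cells. Values between such clusters are descriptions, and no test was made.

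Ighm, the IgM heavy chain, was read at 3059, 3662, 3193, 3309, and 3609 CPM in the B-like cells of the 5 libraries. Ighd, the IgD heavy chain, averaged 965 ± 99.3 CPM and Igkc, the kappa light chain, 7929 ± 298 CPM (n = 5). The lambda genes Iglc1, Iglc2, and Iglc3 averaged 893 ± 71.6, 1415 ± 81.5, and 818 ± 60.2 CPM. In contrast, each switched class was near the bottom of the range in B-like cells. Igha averaged 5.70 ± 0.66 CPM, Ighg3 4.95 ± 0.92, Ighg2b 4.33 ± 2.34, Ighg1 1.35 ± 0.53, and Ighg2c 1.35 ± 1.36 CPM, and Ighe had no UMI. The 5 libraries were close for every abundant member and spread widely for Ighg2c.

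Plasma-like cells carried another profile. Ighm averaged 70220 ± 9558 CPM and Igkc 272873 ± 45436 CPM, and Jchain, which joins the units of polymeric IgM and IgA, averaged 37309 ± 2007 CPM. Ighd stood at 48.0 ± 31.9 CPM, below its level in B-like cells in each library. Ighg2c (11237 ± 8647 CPM), Ighg2b (4867 ± 5785 CPM), and Igha (3975 ± 4540 CPM) varied widely from library to library. Ighg1 had no UMI in plasma-like cells.

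The light chain of each cell was called from the larger of Igkc and the summed lambda genes. Among 25423 B-like cells with at least 3 light chain UMIs, lambda was the larger in 2535, or 9.97% (95% Clopper-Pearson interval 9.61% to 10.3%), with an SD of 1.26 percentage points over libraries. Kappa was the larger in 89.1%, and 0.90% were tied. Intervals cover counting error only. The calls depend on the threshold, since 97.96% of the kappa-majority cells also had a lambda UMI and lambda made up 22.0% of their light chain UMIs. When a chain had to reach 80%, a limit chosen after the data were seen, 43.6% of cells were kappa, 4.99% lambda, and 51.4% neither. Cells with under 10% lambda made up 12.4% of the total, those with 10% to 20% made up 29.0%, those with 20% to 30% made up 26.7%, and those with 30% to 40% made up 14.2%. The bins above held fewer, with 0.93% at 80% to 90% lambda and 4.06% above 90%.

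Plasma-like cells were more sharply divided. Of 98 cells, 87 had under 10% lambda, 7 had over 90%, and 4 fell between. In the 90 kappa plasma-like cells lambda made up 1.88% of light chain UMIs, against 22.0% in kappa B-like cells. The median cell had 11532.5 UMIs in the plasma-like class and 2622 in the B-like class, and the part of this depth in the difference was not tested.

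**Figure D1:**
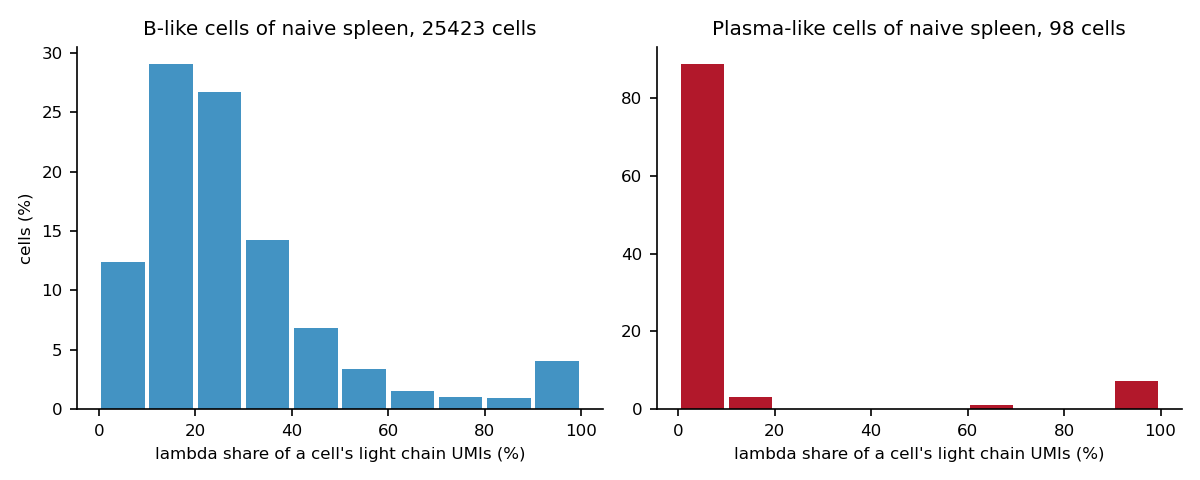
Share of lambda among the light chain UMIs of single cells in naive spleen, in bins of 10 percentage points, for B-like and plasma-like cells, as the percentage of the cells of each class. B-like cells peak at 10% to 20% lambda with a small second group above 90%, whereas 87 of 98 plasma-like cells lie below 10%.

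Lambda use itself differed by gene. In the 2535 lambda-majority B-like cells, Iglc1 was the largest lambda gene in 1270, Iglc2 in 948, and Iglc3 in 248. In the 22659 kappa-majority cells, Iglc2 was the largest in 11539, Iglc3 in 5376, and Iglc1 in 1727. Iglc1 stood at 4658 CPM in lambda-majority cells and at 451 CPM in kappa-majority cells, whereas Iglc3 stood at 1201 and 773 CPM. These cells were chosen by the same counts, so the values describe the classes.

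For the heavy chain, 25060 B-like cells had at least 3 UMIs. Ighm was the largest in 87.8% (87.4% to 88.2%), Ighd in 7.45% (7.12% to 7.78%), and 4.58% were tied. Both Ighm and Ighd were found in 84.4% of B-like cells. A switched gene was the largest in 40 cells, or 0.16% (0.11% to 0.22%). Of these 40 cells, 13 had Ighg2b, 11 Ighg1, 8 Ighg3, 7 Igha, and 1 Ighg2c.

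Each plasma-like cell was dominated by 1 heavy chain gene, which took 96.4% to 100% of its heavy chain UMIs. Ighm was that gene in 76 of 98 cells, Ighg2c in 12, Igha in 6, and Ighg2b in 4. No cell was led by Ighg1, Ighg3, Ighd, or Ighe, and the 95% Clopper-Pearson interval of 0 of 98 pooled cells reaches 3.69%. Together, switched cells made up 22.4% (14.6% to 32.0%). By library the numbers of Ighm plasma-like cells were 13, 12, 21, 16, and 14 of 19, 14, 25, 25, and 15. The share of switched plasma-like cells thus ranged from 6.67% to 36.0% between libraries. A single plasma-like cell reached 3358 UMIs of Ighm, 3431 of Ighg2c, 2096 of Ighg2b, 1838 of Igha, and 13071 of Igkc. By a rule of at least 5 Jchain UMIs and 2 other plasma cell markers, 158 cells were found, of which 97 lay in the plasma-like class and 46 in unnamed clusters, and 18.7% of the 155 with a heavy chain call were switched. At Leiden resolutions of 0.4 and 1.5 the name also went to a cluster of 302 or 375 cells led by Mki67 and Top2a, genes of dividing cells. The switched shares of 8.98% and 10.2% at these resolutions include it.

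B-like cells were divided further by markers of B cell subsets. Follicular-like cells (6373) are the recirculating type, transitional-like cells (3999) are recent arrivals from the marrow, marginal zone-like cells (3430) line the blood sinus of the spleen, and B-1-like cells (761) are a self-renewing type known for natural IgM. The other 10867 cells stayed without a subset, by a limit on the marker score set after the data were seen. The share of Ighd in the sum of Ighm and Ighd was 29.2% ± 1.7 in follicular-like cells and 15.2% ± 0.6 in transitional-like cells. It was 11% ± 0.5 in marginal zone-like and 11.5% ± 0.8 in B-1-like cells (n = 5). In each of the 5 libraries the lowest follicular-like value lay above the highest value of the other 3 subsets, whose ranges ran up to 16.1%. Cells without a subset resembled the follicular-like ones, at 29.1% ± 1.6.

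The levels of both genes differed between subsets, though not for every pair. Ighd stood at 1309 ± 111 CPM in follicular-like, 853 ± 64.1 in transitional-like, 550 ± 35.9 in B-1-like, and 407 ± 35.2 CPM in marginal zone-like cells. Ighm was highest in transitional-like cells, at 4754 ± 390 CPM, followed by B-1-like cells at 4235 ± 365 CPM. It stood at 3289 ± 225 CPM in marginal zone-like and 3180 ± 207 CPM in follicular-like cells, which overlapped between libraries.

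Light chain use differed between these subsets as well. Lambda was the larger chain in 6.92% ± 1.04 of follicular-like, 11.5% ± 1.5 of marginal zone-like, 18.0% ± 2.2 of transitional-like, and 24.8% ± 4.7 of B-1-like cells. Iglc1 per Iglc2 was 1.07 ± 0.09 in transitional-like cells and 0.45 ± 0.04 in follicular-like cells, with no overlap between libraries. Switched heavy chains summed to 86.8 ± 15.5 CPM in B-1-like cells and to 11.1 to 20.7 CPM on average in the other subsets. Ighg3, an IgG class known in responses to carbohydrates, stood at 29.0 ± 6.3 CPM in B-1-like and 11 ± 2.0 CPM in marginal zone-like cells, and at 1.07 CPM on average in both other subsets. Ighg2b reached 30.1 ± 14.6 CPM in B-1-like cells.

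**Figure D2:**
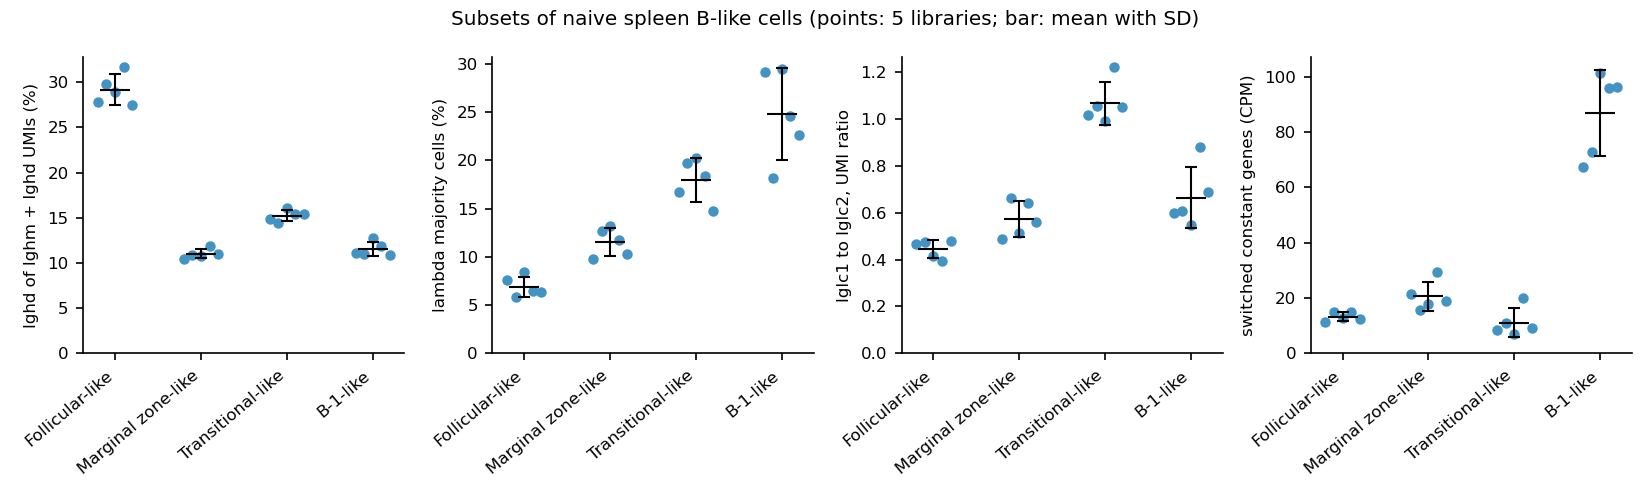
From left to right, the share of Ighd in Ighm plus Ighd (%), lambda-majority cells (%), the UMI ratio of Iglc1 to Iglc2, and summed switched genes (CPM) in B-like subsets of naive spleen. Points are the 5 libraries and bars their mean ± SD, and follicular-like cells have the highest share of Ighd (29.2%) and the lowest share of lambda cells (6.92%).

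In cells that are not of the B lineage, Ighm RNA did not keep the proportions of B-like cells. When each cell was thinned to 1000 UMIs, 23.1% ± 1.7 of T-like cells of naive spleen had an Ighm UMI and 7.99% ± 2.65 had an Igkc UMI, whereas 93.5% ± 1.1 and 95.9% ± 0.7 of B-like cells had these. Of NK-like cells 20.7% ± 2.3, and of myeloid-like cells 33.7% ± 9.9, had an Ighm UMI, with median depths of 2689 and 6385 UMIs, against 3840 in T-like cells. Without thinning the share in T-like cells was 57.3%. The share of T-like cells with Ighm thus lay near that of NK-like cells. The Ighm level was 332 ± 33.5 CPM in T-like and 471 ± 116 in NK-like cells. In myeloid-like cells it ranged from 448 to 3791 CPM between libraries, with a median of 893, and 3 of the 583 cells met the plasma cell rule given above.

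The ratio of Ighm to Igkc UMIs was 0.42 ± 0.03 in B-like and 0.26 ± 0.05 in plasma-like cells. It was 1.29 ± 0.34 in T-like cells, and 4.84 ± 2.01 in T-like cells without a UMI of the B cell genes Cd79a or Ms4a1. Those T-like cells had Ighm at 251 ± 25.6 CPM and Igkc at 58.8 ± 24.4 CPM. NK-like cells without such a UMI had Ighm at 168 ± 24.9 CPM and myeloid-like cells at 208 ± 27.3 CPM, with ratios of 2.25 ± 1.01 and 2.67 ± 1.02 (4 libraries in the latter). UMIs are counted at the 3′ end, once per molecule and not divided by length, so these ratios compare groups of cells and not the amounts of the 2 proteins.

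The CD8+ matrices were read in the same way, and the cells of the naive spleen one also lie in the CD45+ matrix. Cells with a B cell gene UMI were left out in this step, which used Cd79a and Ms4a1 but no member. The Ighm level was then 187, 188, and 208 CPM as lowest, median, and highest library of 1-week kidney, 179, 211, and 245 CPM in 3-week kidney, and 209, 263, and 283 CPM in naive spleen. In 1-week spleen it was 256, 260.3, and 278 CPM, and in 3-week spleen 235, 264, and 298 CPM. Both rejecting kidney libraries stood lowest, at 151 and 174 CPM, apart from 1 library labelled 24-week spleen at 103 CPM. Outside the libraries labelled 24-week spleen, which spanned 103 to 360.1 CPM, all libraries lay between 151 and 298 CPM.

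Igkc in the same cells was not held to a narrow range. It was 7.16 to 18.5 CPM in 1-week kidney, 49.8 to 192 in 3-week kidney, 64.5 to 164 in the libraries labelled 24-week kidney, and 249 to 518 CPM in 1-week spleen. Rejecting kidney had 0.98 and 2.96 CPM, and the libraries labelled 24-week spleen had 244 to 1202 CPM. Within the cells with a B cell gene UMI lay 79.4% ± 2.4 of the Igkc UMIs and 62.5% ± 9.0 of the Ighm UMIs of 1-week spleen. The same cells held 4.24% ± 1.91 and 2.92% ± 1.13 in 3-week kidney.

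**Figure D3:**
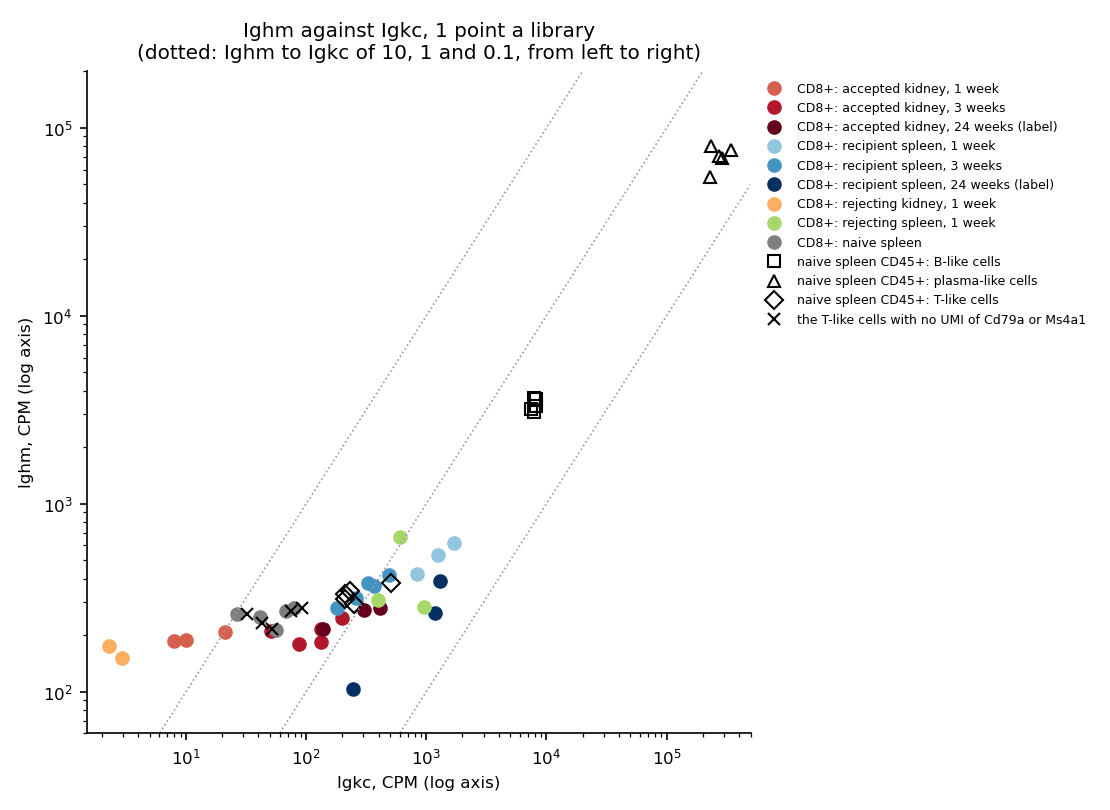
Ighm against Igkc in every library, on log axes in CPM, for CD8+ matrices and for cell classes of naive spleen. Igkc spans 2.27 to 1711 CPM over the CD8+ libraries, whereas Ighm spans 103 to 668 CPM, and dotted lines mark Ighm to Igkc ratios of 10, 1, and 0.1 from left to right.

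CD45+ cells of rejecting kidney allowed the same reading in a tissue with few B-like cells, 87 and 19 per library. All barcodes of the 2 rejecting kidney CD8+ libraries lie in this CD45+ matrix too, so its values and the CD8+ values share cells. T-like cells of the 2 libraries had Ighm at 144 and 172 CPM (411 and 824 UMIs). NK-like cells had 63.4 and 74.6 CPM, and myeloid-like cells had 19.1 and 20.3 CPM (76 and 152 UMIs). In all 3 classes Igkc stayed at or below 7.24 CPM. The order of T-like, NK-like, and myeloid-like cells was the same in both libraries, at median depths of 1655 and 2958 UMIs in T-like and 2177 and 2309 UMIs in myeloid-like cells.

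Across the CD8+ groups, IgM RNA was the most even and IgG, IgA, and light chain RNA the most uneven of the members. In sums over a library, fewer cells of a type and less RNA per cell cannot be told apart. Ighm was read at 209, 187, and 190 CPM in 1-week kidney, at 210, 247, 184, 216, and 179 in 3-week kidney, and at 272, 278, and 215 in the libraries labelled 24-week kidney. Recipient spleen had 534, 615, and 420 CPM at 1 week, 279, 366, 416, 313, and 377 at 3 weeks, and 103, 261, and 389 in those labelled 24-week. Naive spleen had 212, 260, 248, 280, and 270 CPM, rejecting kidney 151 and 174, and rejecting spleen 306, 281, and 668.

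In order of mean Ighm, 1-week spleen (523 ± 97.9 CPM), rejecting spleen (418 ± 217), and 3-week spleen (350 ± 54.4) came first. The ranges of 3-week spleen and of the next group, labelled 24-week kidney, did not overlap. From there to 1-week kidney (195 ± 11.9 CPM) each group overlapped with the next, and rejecting kidney (163 ± 16.4) lay below all 1-week kidney libraries.

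Igkc had the widest span in CPM of any member. Its values were 21.1, 8.004, and 10.1 CPM in 1-week kidney and 50.5, 199.97, 132, 133, and 87.3 CPM in 3-week kidney, so every 3-week library lay above every 1-week library. Recipient spleen had 1241, 1711, and 840 CPM at 1 week and 181, 369, 485, 261, and 328 CPM at 3 weeks. The libraries labelled 24-week kidney had 305, 410, and 138 CPM and those labelled 24-week spleen 246, 1192, and 1310 CPM. Naive spleen had 56.2, 26.4, 41.2, 79.5, and 67.5 CPM, rejecting kidney 2.94 and 2.27, and rejecting spleen 396, 953, and 602 CPM.

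**Figure D4:**
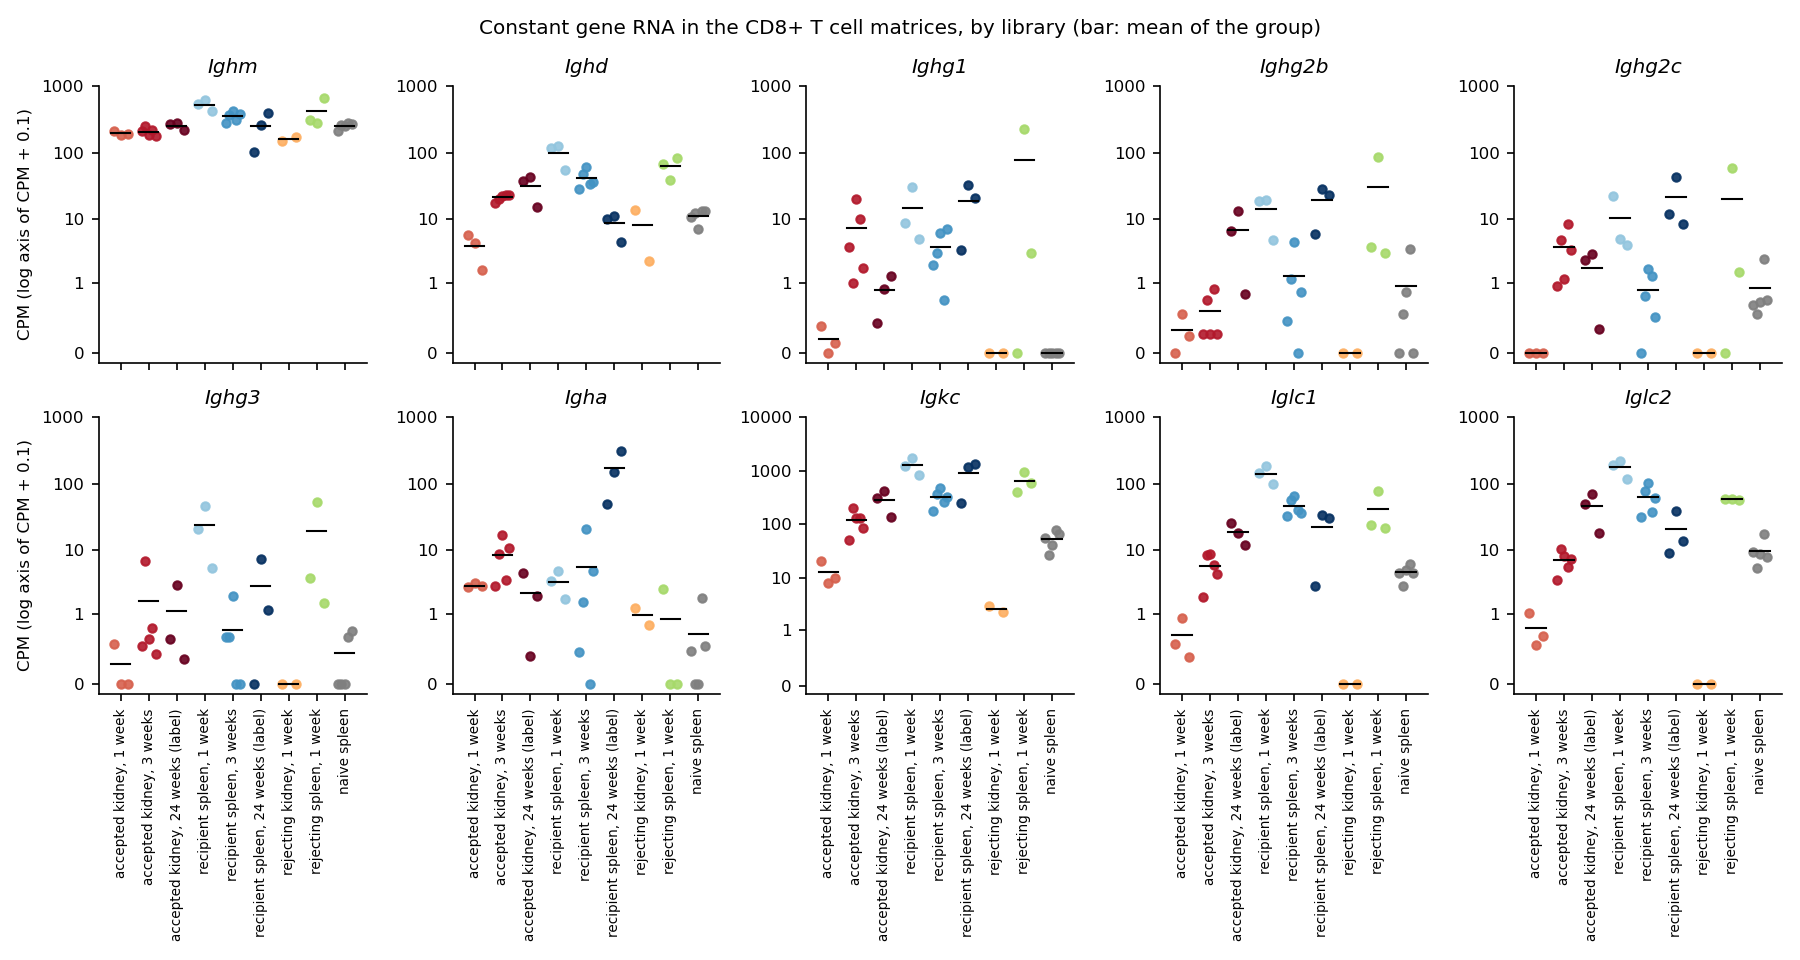
CPM of the 10 members in each of the 32 CD8+ libraries, grouped by tissue and time, on a log axis of CPM plus 0.1, with a bar at each group's mean. Ighm lies between 103 and 668 CPM in all libraries, and Igha above 40 CPM occurs in the 3 libraries labelled 24-week spleen (48.7, 151, and 308 CPM) and in no other.

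CD8+ libraries of accepted kidney at 3 weeks were compared with those at 1 week. All comparisons of CD8+ libraries used the quasi-likelihood test of edgeR, and p-values were adjusted by Benjamini and Hochberg over every gene tested, with a limit of 0.05. Of the 10 members 8 could be tested, 7 were higher at 3 weeks, none was lower, and Ighm was not called. A gene at or near 0 in 1 group passes the filter on low counts only through the group where it is high and so had to differ, which holds here for Ighg1 and Ighg2c. Iglc1 and Iglc2, with 20 and 29 UMIs over the 1-week libraries, also passed only through the 3-week libraries. Counts over the members tested are therefore descriptions, here and in the other comparisons. Of all 11693 genes, 75.0% were called, 53.5% as higher. The median gene shifted by 0.41 on the log2 scale, and TMM factors, which centre that median, turned the split of all calls from 6251 higher and 2516 lower into 4112 and 4165. Each of the 7 calls held its direction under TMM.

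Ighd was read at 5.68, 4.39, and 1.62 CPM at 1 week and at 17.3, 19.9, 22.4, 23.5, and 23.2 CPM at 3 weeks. The groups did not overlap, and the log2 difference was 2.54 ± 0.27 (SE; adjusted p = 8.68e-07). Igkc rose by 3.23 ± 0.40 on the log2 scale (adjusted p = 3.79e-06). Iglc1, at 0.37 CPM over the 1-week libraries, rose by 3.87 ± 0.55, and Iglc2, at 0.54 CPM there, by 3.63 ± 0.41, given as descriptions. Ighg1 had 3 UMIs over the 1-week libraries and 391 over the 3-week libraries, a ratio in CPM of 131 (95% counting interval 44.5 to 638). Its 3-week libraries had 3.75, 1.02, 19.8, 10.1, and 1.79 CPM, and without library 3, which held 55.5% of the UMIs, the ratio was 73.4 (24.7 to 359). Ighg2c had none against 193, which is at least 64.6-fold higher against a floor of 3 counts over the group. The 3-week libraries had Ighg2c at 0.89, 4.82, 1.18, 8.52, and 3.31 CPM.

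Igha rose less, from 2.69, 3.12, and 2.77 CPM to 2.77, 8.61, 16.8, 3.47, and 10.7 CPM, and the groups overlapped (log2 difference 1.57 ± 0.45, adjusted p = 0.00549). That call was lost with DESeq2 (adjusted p = 0.0827). Ighm differed by 0.08 ± 0.10 (adjusted p = 0.453), and it was called lower under TMM factors (-0.29, adjusted p = 0.0167). Ighg2b and Ighg3 were too low to test, and their ranges overlapped.

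Markers of B cells, and some of plasma cells, moved in the same comparison. Of the 9 genes of a B identity list, 8 were higher and none lower, with a median log2 difference of 2.04 against 0.41 over all genes. Its summed level was 57.7 to 86.9 CPM at 1 week and 75.8 to 221 CPM at 3 weeks. Cd79a, the signalling partner of the B cell receptor, rose by 2.65 ± 0.43 (adjusted p = 5.13e-05), whereas Cd79b, the other chain of that pair, differed by 0.14 ± 0.17 (adjusted p = 0.449). Of a plasma cell list, 4 of 7 tested genes were higher and 2 lower, near the 53.5% and 21.5% of all genes. Its median log2 difference was 0.51, against 0.41 over all genes, and Jchain rose from 5.41 ± 2.17 to 17.0 ± 4.1 CPM. Igkc per Cd79a was 10.4 to 20.8 in 3-week kidney, between the 3.52 ± 0.18 of B-like and the 496 ± 96.7 of plasma-like cells. Which cells the RNA came from was not tested.

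The libraries labelled 24-week kidney were compared with 3-week kidney in the same way. Of 8 members tested, 5 were higher and 2 lower, against 73.5% of 11617 genes called, with 16.6% higher and 56.9% lower. Under TMM the split of all genes moved from 1933 higher and 6610 lower to 3689 and 3928. Iglc2 rose most, from 3.48, 10.5, 8.01, 5.55, and 7.25 CPM to 49.1, 70.3, and 18.1 CPM (log2 difference 2.71 ± 0.34, adjusted p = 4.12e-06). Igkc rose by 1.24 ± 0.34 (adjusted p = 0.00411) and Iglc1 by 1.66 ± 0.33. Ighm rose by 0.30 ± 0.11 (adjusted p = 0.019) and Ighd by 0.57 ± 0.23 (adjusted p = 0.0351), calls that were both lost without library 1 or library 2 labelled 24-week kidney, and Ighd also without library 1 or 2 of 3-week kidney. The Igkc call was lost without library 2 (0.87, adjusted p = 0.0569). Ighg1 fell by 3.14 ± 1.04 (adjusted p = 0.0135) and Igha by 2.00 ± 0.67 (adjusted p = 0.0139). Both passed the filter only through 3-week kidney, so these falls are descriptions. The Ighg1 call was lost without library 1 or 2 labelled 24-week kidney, and the Igha call was lost in each of 4 separate alternatives, without library 2, without library 3, under TMM (adjusted p = 0.061), and with DESeq2 (adjusted p = 0.159). Ighg2c, at -1.13, was not called (adjusted p = 0.18).

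All 9 B identity genes were higher here, with a median log2 difference of 2.68 against -0.44 over all genes, and Jchain fell by 1.60 ± 0.28 (adjusted p = 0.000112). Lambda made up 24.9% to 26.2% of light chain UMIs in the libraries labelled 24-week kidney and 9.34% to 14.5% in 3-week kidney. In B-like cells of naive spleen it was 28.3% ± 1.7. When cells with 10 or more member UMIs or any UMI of Cd79a or Ms4a1 were left out, an alternative chosen after the data were seen, Ighd, Ighm, and Igkc turned to -1.45, -0.07, and -0.45, and Iglc2 (0.40) and Iglc1 (0.13) lost their calls. Leaving such cells out selects in part on the values compared.

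In accepted mice at 1 week, every member but Igha was lower in kidney than in recipient spleen. All 10 were tested and 9 were lower, against 51.4% of 11707 genes called, with 27.3% higher and 24.1% lower. The 4 IgG genes among the 9 had 0 to 6 UMIs over the kidney libraries, Iglc1 had 20, and Iglc2 had 29. All of these passed the filter only through spleen. Igkc was lower by 6.61 ± 0.39 on the log2 scale (98.0-fold, adjusted p = 3.51e-07). Ighd was 117, 127, and 55.2 CPM in spleen, which put kidney lower by 4.77 ± 0.41 (27.4-fold). Iglc1 (143, 183, and 96.9 CPM in spleen) and Iglc2 (191, 222, and 119 CPM) were lower by 8.50 ± 0.38 and 8.32 ± 0.35, sizes that rest on few kidney UMIs. Ighm was lower by 1.42 ± 0.13 (2.68-fold, adjusted p = 9.59e-06), which is the smallest of the 9 differences.

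The IgG classes were low in kidney at this time. Ighg1 was 8.71, 30.3, and 4.96 CPM in spleen, 236 times (80.1 to 1146) its level in kidney by summed counts, and Ighg2c was at least 186-fold higher in spleen. Without spleen library 2 the Ighg1 ratio was 119 (40.2 to 585), and without spleen library 1 the Ighg2c bound was 78.4-fold. Ighg2b had 6 UMIs over the kidney libraries and 460 over the spleen libraries, and Ighg3 had 4 against 735. Their fitted log2 differences of -6.86 ± 0.74 and -8.12 ± 1.05 depend on the prior count. Igha stood at 2.69 to 3.12 CPM in kidney and 1.73 to 4.77 CPM in spleen, which overlapped (log2 difference -0.16 ± 0.31, adjusted p = 0.691). All 9 B identity genes were lower in kidney (median -7.40, against 0.003 over all genes), and their sum was 1281 to 2624 CPM in spleen. The share of cells with a UMI of Cd79a or Ms4a1 was 0.26% to 0.46% in kidney and 15.5% to 23.2% in spleen.

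At 3 weeks the gap between the tissues was smaller. Of 7 members tested, 5 were lower in kidney and none higher, against 67.5% of 10944 genes called, with 47.3% higher and 20.2% lower. TMM turned the split of all genes from 5177 higher and 2215 lower to 3532 and 3335. Igkc was lower by 1.43 ± 0.27 (adjusted p = 0.000137), Ighm by 0.76 ± 0.10, Ighd by 0.98 ± 0.16, Iglc1 by 3.00 ± 0.26, and Iglc2 by 3.16 ± 0.29. Ighg1 differed by 0.98 ± 0.66 (adjusted p = 0.20) and Igha by 0.63 ± 0.66 (adjusted p = 0.416). Without 1 spleen library that had 20.7 CPM of Igha, where the other 4 had 0 to 4.81, Igha was higher in kidney (log2 difference 2.39, adjusted p = 0.00669). When cells with B cell RNA were left out, the Igkc call was lost (-0.12, adjusted p = 0.726) and Ighd turned to 0.96. All 9 B identity genes were lower in kidney, whereas Jchain was higher by 0.82 ± 0.26 (adjusted p = 0.0104).

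In the libraries labelled 24-week, the classes parted. Of 9 members tested, 5 were lower in those labelled kidney and 2 higher, against 53.1% of 10381 genes called, with 16.4% higher and 36.7% lower. TMM turned the split of all genes from 1706 higher and 3805 lower to 2605 and 2777. Igha was 4.51, 0.16, and 1.95 CPM in the libraries labelled kidney and 48.7, 151, and 308 CPM in those labelled spleen (log2 difference -6.30 ± 0.64, adjusted p = 5.15e-07). Ighg1 (-4.43 ± 0.69), Ighg2c (-3.61 ± 0.63), Ighg2b (-1.53 ± 0.57, adjusted p = 0.0317), and Igkc (-1.69 ± 0.43, adjusted p = 0.0037) were lower as well. Of heavy chain UMIs in the libraries labelled kidney, Ighg1 made up 0.06% to 0.55% and Ighg2c 0.06% to 0.85%. Igha, Ighg1, Ighg2c, and Ighg2b passed the filter only through the libraries labelled spleen, so their differences are descriptions. Ighd (1.88 ± 0.35) and Iglc2 (1.21 ± 0.44, adjusted p = 0.0285) were higher in the libraries labelled kidney, Ighm differed by 0.03 ± 0.28 (adjusted p = 0.948), and Iglc1 by -0.23 ± 0.46 (adjusted p = 0.712). The calls of Ighg2b and Iglc2 were each lost when any of 4 single libraries was left out, namely kidney 1 and 3 and spleen 2 and 3 for Ighg2b, and kidney 1 and 2 and spleen 1 and 3 for Iglc2. The Igkc call was lost with DESeq2 (adjusted p = 0.105), as were those of Ighg2b and Iglc2. Without cells with B cell RNA the Ighd call was lost (0.02, adjusted p = 0.960), as was that of Ighg2b, and Iglc2 turned to -0.80.

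Igha made up 26.5%, 28.2%, and 40.8% of the heavy chain UMIs of the libraries labelled 24-week spleen, and at most 6.90% in any other library. All switched classes together made up 38.2% to 49.1%. In 3-week kidney switched classes made up 3.31% to 15.7%, in 1-week spleen 4.18% to 12.4%, and in naive spleen 0.20% to 2.68%. In rejecting spleen 2 libraries had at most 2.63%, and the library of 56 cells, with 114 heavy chain UMIs, had 57.0%. Lambda was 3.61% to 6.38% of light chain UMIs, Igkc per Cd79a 35.3 to 179, and Jchain per Igkc 0.11 to 0.15. In the libraries labelled 24-week kidney, these were 24.9% to 26.2%, 3.39 to 4.69, and 0.0159 to 0.0228, and in 3-week spleen 28.3% to 29.9%, 3.60 to 4.91, and 0.0176 to 0.0360. In accepted kidney, lambda was 7.52% to 15.04% at 1 week and 9.34% to 14.5% at 3 weeks. Igkc per Cd79a was 9.0 and 10.9 in the 2 libraries of 1 week with enough Cd79a UMIs for a ratio (at least 10) and 10.4 to 20.8 at 3 weeks, and Jchain per Igkc was 0.28 to 0.91 and 0.11 to 0.41. Each of the 9 B identity genes was higher where the label was kidney (median 2.32, against -0.17 over all genes and 16.4% of them higher), and 4 of 5 tested plasma cell genes, Jchain among them (-4.53 ± 0.57), were lower, against 36.7% of all genes.

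Rejecting kidney libraries were compared with accepted kidney at 1 week. The rejecting grafts were B6 kidneys in DBA/2J mice and the accepted grafts the reverse, so outcome and strain cannot be told apart. Only 4 members could be tested, of which 2 were lower and none higher, against 59.3% of 12533 genes called, with 48.8% higher and 10.5% lower. TMM turned the split of all genes from 6119 higher and 1317 lower to 3443 and 3222. Igkc was 2.94 and 2.27 CPM in rejecting kidney and 21.1, 8.004, and 10.1 CPM in accepted kidney (log2 difference -2.33 ± 0.60, adjusted p = 0.00899). These Igkc values of rejecting kidney rest on few UMIs. Igha, at 1.26 and 0.65 CPM in rejecting kidney, was lower by 1.62 ± 0.49. Both Igha values lie at or below the floor of 3 counts in a library. Igha passed the filter only through accepted kidney, so its difference is a description. Without rejecting library 3 it was -1.17, in a fit that leaves 1 rejecting library, assumed to vary like the accepted ones.

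Ighd was 13.9 and 2.27 CPM in rejecting kidney, 1 value above and 1 within the range of the accepted libraries, and was not called (adjusted p = 0.251). Ighm, not called with library totals (-0.26 ± 0.16, adjusted p = 0.191), was called lower under TMM (-0.95, adjusted p = 0.00126). The 4 IgG genes, Iglc1, and Iglc2 had 0 UMIs in both rejecting kidney libraries, where 3 counts over the group correspond to 0.55 CPM. Accepted kidney at 1 week had at most 0.54 CPM of any of these over its group, so no difference was detectable at this depth. Of the B identity list 5 genes were tested and 2 were higher, Cd74 (1.89 ± 0.32) and Ebf1 (2.19 ± 0.72), against 48.8% of all genes, and Ms4a1 had no UMI in rejecting kidney.

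Recipient spleen at 1 week was compared with naive spleen. Of the 10 members 9 were tested and all 9 were higher at 1 week, against 60.2% of 10348 genes called, with 25.0% higher and 35.2% lower. The 4 IgG genes among them had 0 to 21 UMIs over the naive libraries and passed the filter only through 1-week spleen. Igkc rose by 4.53 ± 0.24 (23.1-fold, adjusted p = 4.1e-10), Iglc1 by 4.92 ± 0.21, Iglc2 by 4.13 ± 0.23, and Ighd by 3.14 ± 0.24. Ighm rose by 1.04 ± 0.11 (2.06-fold, adjusted p = 3.37e-07). Ighg1 had no UMI in naive spleen CD8+ cells and was at least 93.8-fold higher at 1 week (47.5-fold without library 2 of 1-week spleen), and Ighg3 rose from 0 to 0.52 CPM to 20.5, 45.5, and 5.34 CPM (6.82 ± 0.90, a size that depends on the prior count). Ighg2b rose by 3.82 ± 0.62 and Ighg2c by 3.53 ± 0.67.

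All 9 B identity genes and all 9 receptor signalling genes were higher at 1 week, against 25.0% of all genes. The lists share Cd79a, Cd79b, and Cd22. Their median log2 differences were 4.80 and 3.46, against -0.12 over all genes. Cd79a averaged 322 CPM at 1 week and 8.04 CPM in naive spleen (5.30 ± 0.21). Cells with a UMI of Cd79a or Ms4a1 were 15.5% to 23.2% of CD8+ cells at 1 week and 3.22% to 7.47% in naive spleen. When cells with B cell RNA were left out by the same rule, Ighm differed by 0.02 (adjusted p = 0.839) and Iglc2 by 0.12 (adjusted p = 0.711), and Ighd turned to -0.62 (adjusted p = 0.00913). The other 6 members tested kept their direction and call, with Igkc at 2.75 and Iglc1 at 2.70, and the rule selects in part on the values compared.

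**Figure D5:**
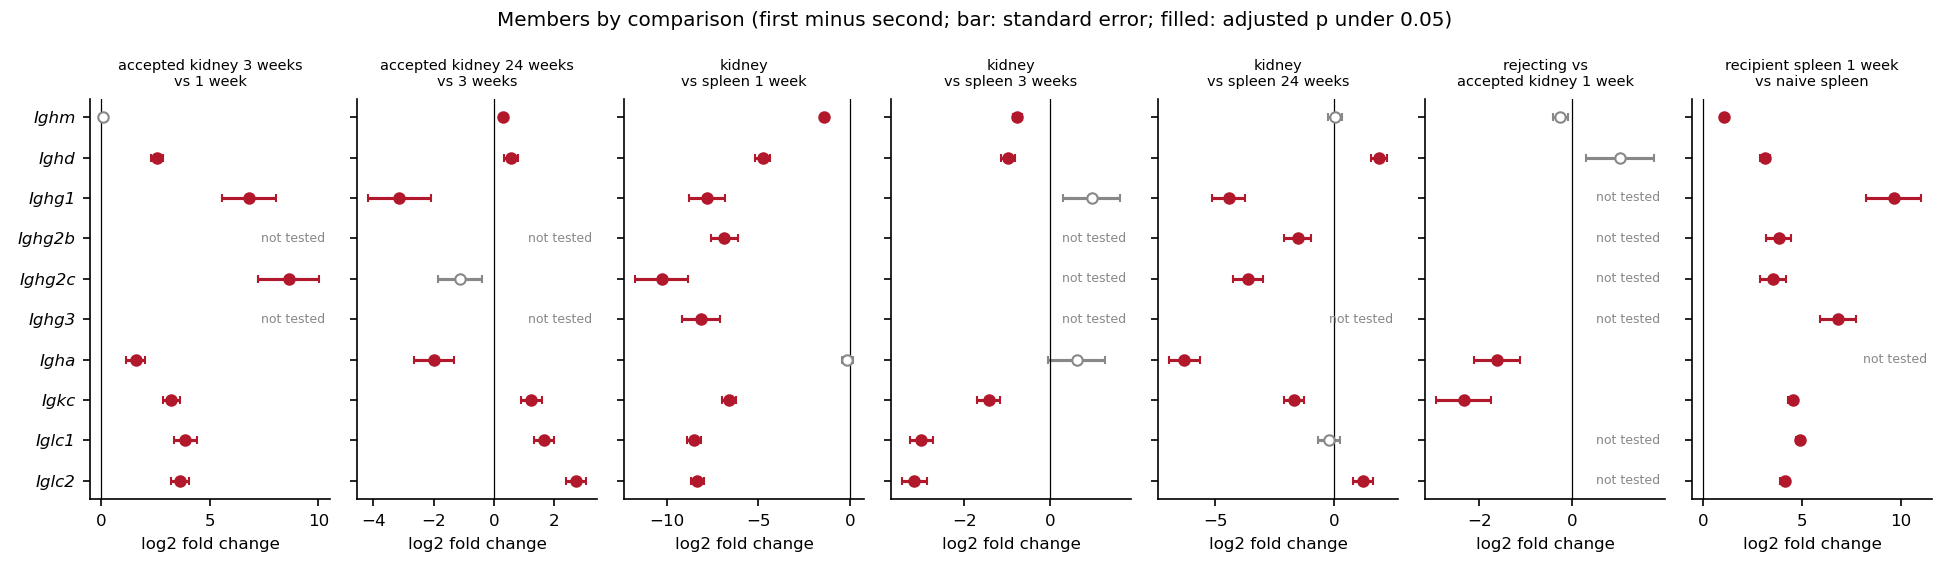
Log2 differences of the 10 members (± SE) in the 7 comparisons of CD8+ libraries by edgeR, filled where the adjusted p was under 0.05, with members that could not be tested marked as such and a separate scale in each panel. The light chains Iglc1, Iglc2, and Igkc each have their largest difference between kidney and spleen at 1 week (-8.50, -8.32, and -6.61), and Ighm differs by at most 1.42. Against 1-week kidney, where Iglc1 and Iglc2 had 20 and 29 UMIs, these genes passed the filter only through the other group. Values of the IgG genes against groups with 0 to 6 UMIs depend on the prior count.

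Other genes of antibody handling were read from lists chosen with the members. The receptor signalling list shares Cd79a, Cd79b, and Cd22 with the B identity list. Of the genes for receptor signalling, from Cd79a to Syk, 8 of 9 were higher in 3-week than in 1-week kidney, against 53.5% of all genes, and all 9 were lower in kidney than in spleen at 1 week, against 24.1%. At 3 weeks 7 of 9 were lower in kidney, against 20.2% of all genes, and 1, the kinase gene Lyn, was higher (0.82 ± 0.21, adjusted p = 0.00199). Of the genes for Fc receptors and antibody transport, which also serve myeloid cells, 4 of 9 were higher and 1 lower in 3-week than in 1-week kidney. Of all genes 53.5% were higher and 21.5% lower, and the median log2 difference was 0.37 for the list and 0.41 over all genes. The sum of the list was 301 to 636 CPM in 3-week kidney and 111 to 188 CPM in 1-week kidney, most of it from Fcer1g, at 493 and 141 CPM on average. Prdm1 and Xbp1, factors of plasma cells that activated T cells also use, rose between 1 and 3 weeks in kidney by 0.65 ± 0.11 and 0.51 ± 0.09, against a median shift of 0.41 over all genes, and Irf4 and Eaf2 of the same list were lower.

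Genes whose CPM followed each member over the 32 CD8+ libraries were in part markers of the B lineage. The likeness is Spearman's rho over libraries that share tissue and depth, and it is a description. Of 7509 genes with at least 10 CPM on average, Bank1 was most like Ighm (0.83), Fcmr, the receptor of IgM, most like Ighd (0.94), and Mzb1 most like Igkc (0.94) and Iglc1 (0.89). Cd79a was most like Iglc2 (0.95). Jchain was most like Ighg1 (0.85) and Ighg2c (0.77), and Mzb1 most like Ighg3 (0.71). Ighg2b was followed by Rps27rt (0.84) and Igha by Metrnl (0.78), neither of which was on a fixed list. Next in order came Mzb1 (0.82) for Ighm, Syk (0.91) for Ighd, and Cd79a (0.82) for Igkc, but Kctd12 (0.77) for Ighg1, Vkorc1 (0.75) for Ighg2c, Napsa (0.68) for Ighg3, and Hcfc1r1 (0.78) for Igha, none of which was on a fixed list.

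Within a library, the RNA lay in a few cells or in many. Of the Igkc UMIs, 67.8% to 75.2% in 1-week spleen, 52.1% to 65.1% in 3-week spleen, and 54.2% to 75.8% in the libraries labelled 24-week kidney lay in cells with at least 10 of them. In 3-week kidney 0% to 4.92% did, and in the libraries labelled 24-week spleen 8.73% to 47.0%. Thus 6283 Igkc UMIs of 3-week kidney were spread over 4864 of 22206 cells, whereas 41546 UMIs of 1-week spleen lay in 7351 of 11913 cells, with 1443 cells at 10 or more.

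After thinning to 1000 UMIs, Igkc was found in 0.87% ± 0.33 of CD8+ cells in 1-week kidney, 11.3% ± 5.0 in 3-week kidney, 40.5% ± 9.4 in 1-week spleen, 15.3% ± 5.2 in 3-week spleen, and 5.89% ± 1.86 in naive spleen. It was found in 0.27% ± 0.08 in rejecting kidney and in 44.9% ± 21.2 in the libraries labelled 24-week spleen. Ighm was found in 15.9% ± 1.3 in 1-week kidney, 18.0% ± 2.2 in 3-week kidney, 30.1% ± 3.4 in 1-week spleen, and 22.0% ± 2.1 in naive spleen. Thinning left out cells with fewer UMIs, 313 in 1-week spleen, 97 in the libraries labelled 24-week spleen, 53 in 3-week spleen, and 1 in naive spleen. Without thinning the naive spleen shares were 62.2% for Ighm and 20.4% for Igkc.

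Single cells with at least 100 UMIs of a member were rare, at 21 of 72639. There were 9 in the libraries labelled 24-week spleen, 6 in 1-week spleen, 4 in the libraries labelled 24-week kidney, and 1 each in 3-week and rejecting spleen. In 1 library labelled 24-week spleen, the highest cell had 339 UMIs of Igha, 533 of Igkc, and 68 of Jchain, and cells with at least 10 UMIs held 53.0% of that library's Igha. In the other 2 libraries so labelled no cell reached 10 UMIs of Igha, although Igha stood at 48.7 and 151 CPM. In 1 library of 3-week kidney, 64 of 67 Ighg3 UMIs (95.5%) lay in 1 cell, which set its 6.87 CPM against 0.18 to 0.59 CPM in the other 4. In the 56-cell library of rejecting spleen, 35 Ighg1 UMIs gave 228 CPM with at most 4 in a cell, against 0 and 3.02 CPM in the other 2.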

How the data were processed

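The authors sequenced sorted viable CD45+ cells with a 10x Chromium 3′ kit and processed the reads with Cell Ranger against mm10, per the submitters' processing notes, which give no version. The deposited matrices hold UMI counts per gene and cell, not normalized. Library tags in the cell barcodes gave the libraries. No columns of other samples were present (0 files). The members and all gene lists were chosen with earlier results of these data known.

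UMI counts were summed per library, and groups were compared with edgeR 4.0.16 (R 4.3.3) by the quasi-likelihood test on library totals, with filterByExpr, Benjamini-Hochberg adjustment over all genes tested, and a threshold of 0.05. The test was checked on simulated counts. DESeq2 1.42.0, TMM factors, no filter, totals without immunoglobulin genes, left-out cells, left-out libraries, and a replicate block were alternatives. At 1 week, same-numbered kidney and spleen libraries correlated by 0.26, 0.11, and 0.34, although kidney library 2 correlated best with spleen library 1. No main test used the block, also at 1 week. There the block gave 6557 calls against 6014 and changed no call of a member.

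CD45+ cells were clustered with scanpy 1.11.5 (2000 variable genes without immunoglobulin genes, 30 components, 15 neighbours, Leiden resolution 0.8) and named from fixed markers. All cells were kept. Scrublet's doublet calls were an alternative and did not work for 1 naive spleen library or for rejecting kidney. Chains were called in cells with at least 3 UMIs. The 10 members, further immunoglobulin genes, and Jchain were named, with the 4 most abundant genes of each list and the 3 genes most like each member. Sequences and positions were taken from GENCODE vM21 on GRCm38. Some planned results are not reported here, and the lists and the step that leaves out cells were changed for that reason. Each library's depth sets a floor of 3 counts, 0.116 to 19.6 CPM.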

Additional observations from a re-analysis of the deposited data

Results flagged for a closer look

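In 9 of 48 groups of 4 to 10 libraries, 1 library lay apart from the others by Dixon's criterion, which flags about 1 in 20 groups of normally distributed values by chance. Many of the values here lie near 0 and the same libraries recur, so 9 of 48 cannot be set against that rate. In 3-week spleen the same library, number 3, stood highest for Ighg2b (4.53 CPM, others 0 to 1.19), Ighg3 (1.94 CPM, others 0 to 0.40), and Igha (20.7 CPM, others 0 to 4.81). In naive spleen, library 4 stood highest in CD8+ cells for Ighg2b (3.43 CPM, others 0 to 0.72), Ighg2c (2.42 CPM, others 0.28 to 0.52), and Igha (1.82 CPM, others 0 to 0.26), and in B-like cells for Ighg2b (8.48 CPM, others 3.01 to 3.76). Ighg3 stood at 6.87 CPM in library 2 of 3-week kidney (others 0.18 to 0.59). In plasma-like cells of naive spleen, Ighg3 stood at 68.9 CPM in library 3 (others 0 to 5.38).

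The difference between kidney and spleen itself changed with time, by an interaction term in edgeR, with p-values adjusted by Benjamini and Hochberg, a fit added after the data were seen. From 1 to 3 weeks, the log2 difference of kidney against spleen moved up by 3.81 for Ighd (adjusted p = 4.05e-07), 5.19 for Igkc (8.34e-07), 5.49 for Iglc1 (6.98e-06), and 5.14 for Iglc2 (1.31e-05). It also moved up for Ighg1 (8.65), Ighg2b (4.67, adjusted p = 0.0459), Ighg2c (11.8), and Ighg3 (9.47), whose sizes rest on groups at or near 0 UMIs. The sizes of Iglc1 and Iglc2 rest on 20 and 29 UMIs over 1-week kidney. Of all genes 41.4% were called in this test, and Ighm (0.66, adjusted p = 0.0847) and Igha (0.77, adjusted p = 0.61) were not.

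From 3 weeks to the libraries labelled 24-week, it moved by 0.79 for Ighm (adjusted p = 0.0291), 2.86 for Ighd (1.9e-05), 2.78 for Iglc1 (0.000235), and 4.38 for Iglc2 (3.65e-07), and by -5.44 for Ighg1 (0.000746), -5.90 for Ighg2c (0.000205), and -6.93 for Igha (2.48e-06). The sizes of Ighg1, Ighg2c, and Igha rest on low counts in the libraries labelled 24-week kidney. Of all genes 66.9% were called.

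In the CD45+ matrix of rejecting kidney, which the comparisons do not use, the B-like cells of 1 library held 613 UMIs of Igha. All 613 lay in 1 cell of 3920 UMIs, with 1135 UMIs of Igkc, 111 of Jchain, and 0 of Ighm. No Igha UMI was found in the other 18 B-like cells of that library or in the 87 of the other library.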

How the results depend on the processing

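Among recomputed differences of single members, 646 kept their direction and their side of the threshold, 17 turned, 34 lost a call, and 7 gained one, and the cause of the other changes was not tested. Counts of genes called stayed within 1.5 times of the main count in all 7 comparisons.

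Ighm in 3-week against 1-week kidney turned to -0.29 under TMM and -0.30 with DESeq2. When cells with B cell RNA (10 or more member UMIs or a UMI of Cd79a or Ms4a1, a rule set after the data were seen) were left out, the labelled 24-week against 3-week kidney differences turned to -0.070 (Ighm), -1.45 (Ighd), and -0.45 (Igkc), and Iglc1 (0.13) and Iglc2 (0.40) lost their call. The same step turned Igha in kidney against spleen at 1 week to 0.68, Ighd at 3 weeks to 0.96, Iglc2 in the libraries labelled 24-week to -0.80, and Ighd in 1-week against naive spleen to -0.62, and it ended the calls of Igkc at 3 weeks (-0.12) and of Ighd (0.02) and Ighg2b (-1.41) in the libraries labelled 24-week. Leaving out single libraries turned Igha in kidney against spleen at 1 week (-0.49 to 0.20, the latter without spleen 2), and in the libraries labelled 24-week it turned Ighm (-0.35 to 0.50) and Iglc1 (-0.81 to 0.19). Without kidney library 2, Ighd in rejecting against accepted kidney turned to -0.72, and without library 3 it was 1.89 (adjusted p = 0.0103), but each of these fits leaves 1 rejecting library, assumed to vary like the accepted ones.

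In the libraries labelled 24-week, DESeq2 lost the calls of Igkc (-1.54), Iglc2, and Ighg2b, TMM lost that of Ighg2b, and Iglc1 was called without spleen library 1 (-0.81) and without cells with B cell RNA (-1.55).

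The lambda-majority share was 11.8% after thinning and 4.99% with the 80% limit. Ighd was largest in 10.6% of B-like cells after thinning and in 4.83% of those with at least 10 UMIs, where 0.0875% were switched, and 8.98% of plasma-like cells were switched at resolution 0.4, where a cluster led by genes of dividing cells carried the name too.

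Without thinning, Ighm was found in 39.0%, 35.7%, and 56.6% of CD8+ cells of kidney at 1, 3, and labelled 24 weeks, in 53.1%, 59.6%, and 34.2% of spleen, in 29.0% of rejecting kidney, 39.4% of rejecting spleen, and 62.2% of naive spleen. At 500 UMIs these were 9.02%, 9.61%, 11.02%, 17.7%, 13.99%, 7.89%, 7.01%, 12.4%, and 11.6%. Without cells with a B cell gene UMI they were 17.9% in kidney labelled 24-week, 22.5% in 1-week spleen, and 16.7% in rejecting spleen. Igkc was found without thinning in 2.38%, 21.6%, and 32.9% of kidney, 61.5%, 36.8%, and 71.9% of spleen, 0.41% of rejecting kidney, and 20.4% of naive spleen. At 500 UMIs it was found in 0.49%, 5.99%, and 5.95% of kidney, 27.3% and 8.52% of 1-week and 3-week spleen, 0% of rejecting kidney, and 2.66% of naive spleen, and in 30.1% of 1-week spleen without cells with a B cell gene UMI.

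With the library number as a replicate block, 8166 against 7392 genes were called between kidney and spleen at 3 weeks, where Igha was then called (0.82, adjusted p = 0.0277), and 5706 against 5511 in the libraries labelled 24-week. Same-numbered libraries correlated by 0.05 to 0.45 at 3 weeks and by 0.05 to 0.23 at 24 weeks. Of the 5 pairs at 3 weeks 4 lay over 0.1 and 3 of the 5 kidney libraries correlated best with their own number, and as not every pair lay over 0.1, the numbers were not taken as pairs at these times. The block changed no other call of a member.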
